A study of Mus musculus with 12 samples.

Results

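The VEGF and angiopoietin signalling genes examined here were 10 ligands and receptors: Pgf, Vegfb, Vegfc, Flt1, Kdr, Nrp1, Angpt1, Angpt2, Tek and Tie1. They were read on Affymetrix Mouse Genome 430 2.0 arrays from RNA of small brain vessels, through every probe set annotated to 1 of them and to no other gene. These were 20 of the 45101 probe sets on the array, and 18 of them passed a filter on dim values. For each gene the probe set with the highest mean over the 12 arrays was used, and the others served as a check. With these, 10 of 10 genes passed, among 11716 genes tested in all.

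The arrays fell into 4 groups of 3: cerebellar and cerebral vessel fragments of Notch3 knockout (KO) mice, and cerebellar and cerebral vessel fragments of littermate controls labelled wildtype. All 6 mice were of the C57BL/6 strain and 2 months old, and each array held 1 region of 1 mouse. The sources used here do not give how the Notch3 allele was made, in which cells it is deleted or how the vessels were isolated. Notch3, the receptor of the Notch family that smooth muscle cells and pericytes carry, read 2.48 to 3.58 log2 in KO arrays and 10.84 to 12.02 log2 in control arrays.

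VEGF family ligands act on receptor tyrosine kinases of the endothelium. Kdr carries most of the signal for growth and permeability, Flt1 binds Pgf and Vegfb and also holds ligand away from Kdr, and Nrp1 is a co-receptor. Angpt1, made by the cells that surround the endothelium, activates the endothelial receptor Tek and keeps vessels quiet. Angpt2, released by endothelial cells, can oppose it, and Tie1 is a receptor that pairs with Tek.

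The defining endothelial markers Pecam1 (10.26 to 10.81 log2), Cldn5 (14.75 to 15.03 log2) and Cdh5 (11.54 to 12.02 log2) were well above the median of all values, 3.27 log2, on all 12 arrays, as were the pericyte markers Pdgfrb, Cspg4 and Rgs5 and the smooth muscle markers Acta2, Tagln and Myh11. Markers of microglia (Cx3cr1, 12.16 to 14.01 log2) and choroid plexus (Ttr, 16.07 to 16.29 log2) were also present. Markers of astrocytes (Aqp4, 8.52 to 11.38 log2, and Aldh1l1, 5.55 to 8.12 log2) and of oligodendrocytes (Mbp, 12.01 to 13.98 log2) lay above the median on all 12 arrays too, while Gfap and Mog of the same lists lay under it on every array. Xist, the transcript of the silenced X chromosome of females, was high on 2 of 3 arrays and low on 1 of 3 in each of the 4 groups. Array medians lay between 3.24 and 3.30 log2, and arrays of 1 group correlated with r of 0.991 to 0.996 across the genes tested.

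The first question was which of these genes changed in vessels without Notch3. Pgf and Angpt1 fell in both regions, and the other ligands and the receptors were not called. A gene is said to be called when its adjusted p was under 0.05 by limma's moderated test with Benjamini-Hochberg adjustment over the 11716 genes. In cerebellar vessels 2 of the 10 members were called, both lower, where 4.22% of all genes were called and 3.17% were called lower. In cerebral vessels the same 2 members were called lower, where 6.38% of all genes were called and 3.93% were called lower. The members were chosen with earlier results of these data known, so these shares are a scale only and not a test. The median log2 change over the 10 members was 0.02 in either region, against 0.01 over all genes in cerebellar vessels and -0.01 in cerebral vessels.

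Pgf (Entrez gene 18654, chromosome 12, probe set 1418471_at), the placental growth factor that binds Flt1, had the largest change of the 10. In cerebellar vessels it read 7.49, 7.48 and 7.30 log2 in KO mice 1, 2 and 3, against 8.54, 8.74 and 8.93 log2 in control mice 1, 2 and 3. In cerebral vessels it read 6.50, 6.62 and 6.07 log2 in KO mice, against 7.57, 7.95 and 7.77 log2 in control mice. Every KO array lay below every control array of the same region, and the highest KO array of either region, 7.49 log2, also lay below the lowest control array, 7.57 log2. The cerebellar difference, KO minus control, was -1.32 log2 (SE 0.15, n = 3 each, limma adjusted p = 0.000674), which is 2.49-fold lower in KO vessels. The cerebral difference was -1.37 log2 (SE 0.15, n = 3 each, limma adjusted p = 0.000523), which is 2.58-fold lower. Pgf ranked 88th from the lowest log2 change of all genes in cerebellar vessels and 93rd in cerebral vessels.

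Vessel regions of 1 mouse are not independent, so both regions of each mouse were also averaged and the 3 KO mice compared with the 3 control mice. Pgf averaged 6.99, 7.05 and 6.69 log2 in KO mice and 8.05, 8.34 and 8.35 log2 in control mice, and these did not overlap. The difference of the mouse means was -1.34 log2 (SE 0.13, limma adjusted p = 0.00449). On these means 2 of 10 members were called, again Pgf and Angpt1 and both lower, with 4.03% of all genes called and 3% called lower. The mouse means of 3 of 10 members (Pgf, Angpt1 and Tie1) did not overlap between genotypes, against 26.3% of all genes.

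**Figure D1:**
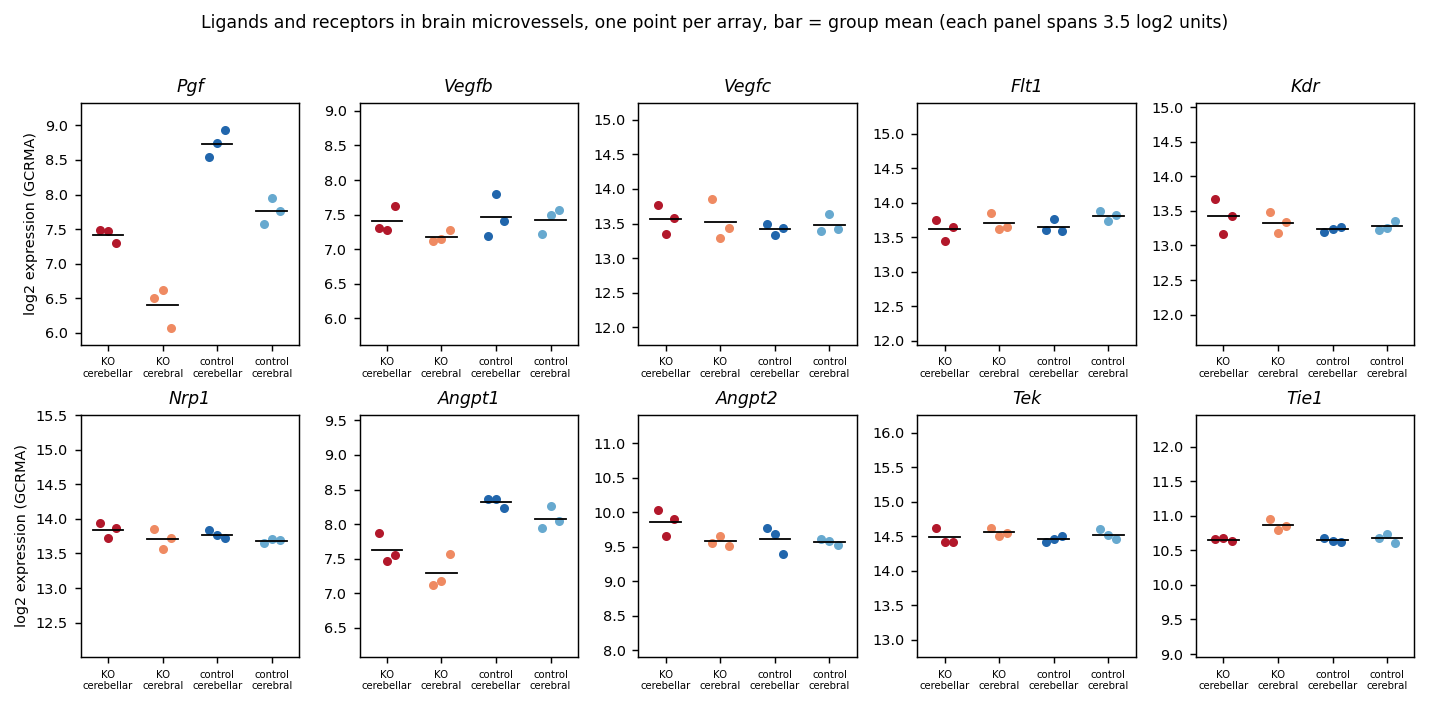
Log2 expression of the 10 genes, 1 point per array and a bar at each group mean, with KO cerebellar, KO cerebral, control cerebellar and control cerebral vessels from left to right; every panel spans the same range of log2 units. Pgf and Angpt1 separate KO from control arrays in both regions, and in the other panels the groups lie close together.

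The start regions of Pgf are shown because it is the member with the largest change, and those of Kdr and Tie1 because they hold the same letters. Notch receptors act on their targets through the DNA-binding protein RBPJ, whose site has the core letters TGGGAA, or TTCCCA when read on the other strand. RefSeq windows on GRCm38.p6, from 250 bases before to 50 after each annotated start, were at hand for 8 of the 10 members, and Pgf had a pair of them. The windows run 5′ to 3′ along the gene and the capitals mark the core letters.
Pgf window with the motif, chr12:85175933-85176232, minus strand: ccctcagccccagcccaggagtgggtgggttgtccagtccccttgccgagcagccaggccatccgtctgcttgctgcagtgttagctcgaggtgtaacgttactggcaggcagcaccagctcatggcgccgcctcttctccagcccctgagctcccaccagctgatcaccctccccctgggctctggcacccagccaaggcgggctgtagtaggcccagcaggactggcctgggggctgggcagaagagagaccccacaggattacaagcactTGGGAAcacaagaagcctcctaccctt
Pgf window without it, chr12:85177264-85177563, minus strand: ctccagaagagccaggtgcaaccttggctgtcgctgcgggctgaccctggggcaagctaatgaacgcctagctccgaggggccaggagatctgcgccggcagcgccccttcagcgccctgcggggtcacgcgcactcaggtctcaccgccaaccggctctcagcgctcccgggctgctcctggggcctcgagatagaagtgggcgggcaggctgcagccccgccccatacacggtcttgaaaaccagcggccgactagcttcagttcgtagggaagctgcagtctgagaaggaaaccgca
Kdr window, chr5:75978406-75978705, minus strand: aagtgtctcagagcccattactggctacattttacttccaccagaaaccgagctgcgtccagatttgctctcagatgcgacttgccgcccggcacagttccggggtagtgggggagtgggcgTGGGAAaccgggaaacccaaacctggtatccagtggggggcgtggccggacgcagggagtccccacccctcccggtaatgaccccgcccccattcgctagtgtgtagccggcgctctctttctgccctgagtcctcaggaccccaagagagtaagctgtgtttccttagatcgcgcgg
Tie1 window, chr4:118489800-118490099, minus strand: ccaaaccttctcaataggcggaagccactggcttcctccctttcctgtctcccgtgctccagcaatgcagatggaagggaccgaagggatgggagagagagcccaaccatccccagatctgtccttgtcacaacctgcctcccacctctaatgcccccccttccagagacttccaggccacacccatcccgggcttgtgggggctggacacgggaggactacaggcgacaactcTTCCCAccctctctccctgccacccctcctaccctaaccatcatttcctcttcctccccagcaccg
The letters stood at 24 bases after the start in the first Pgf window, at -128 in the Kdr window and, as TTCCCA, at -16 in the Tie1 window, each counted at the first letter, with a minus for letters before the start. Of the 9 member windows 3 held them, and 25.6% of the 32851 windows of all genes did, so these matches are a description of the sequence only. Kdr and Tie1, whose windows hold the letters, were not called in the main fits of the deposited values. A link between the letters and the changes was not tested. Angpt1 and Angpt2 are named only.

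Vegfb (chromosome 19), a ligand of Flt1, read 7.31, 7.28 and 7.62 log2 in KO cerebellar vessels, against 7.20, 7.80 and 7.41 log2 in control cerebellar vessels. The cerebral values of Vegfb were 7.12, 7.14 and 7.28 log2 in KO mice, against 7.22, 7.49 and 7.56 log2 in control mice. The groups overlapped in both regions. The cerebellar difference was -0.06 log2 (95% confidence interval -0.41 to 0.28), and the cerebral difference was -0.24 log2 (95% confidence interval -0.59 to 0.10), with limma adjusted p-values of 0.894 and 0.421.

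Vegfc (chromosome 8), best known as a growth factor of lymphatic vessels, ranged from 13.29 to 13.86 log2 over the 6 KO arrays and from 13.33 to 13.63 log2 over the 6 control arrays. Its 3 probe sets did not run the same way. The brightest, 1439766_x_at, differed by 0.15 log2 in cerebellar and 0.04 log2 in cerebral vessels. The set 1419417_at differed by -0.30 log2 in cerebellar and -0.37 log2 in cerebral vessels, and 1440739_at by -0.18 and -0.30 log2 in the same order. None of these was called by limma, the smallest adjusted p being 0.360, so no direction can be given for Vegfc from these arrays.

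**Figure D2:**
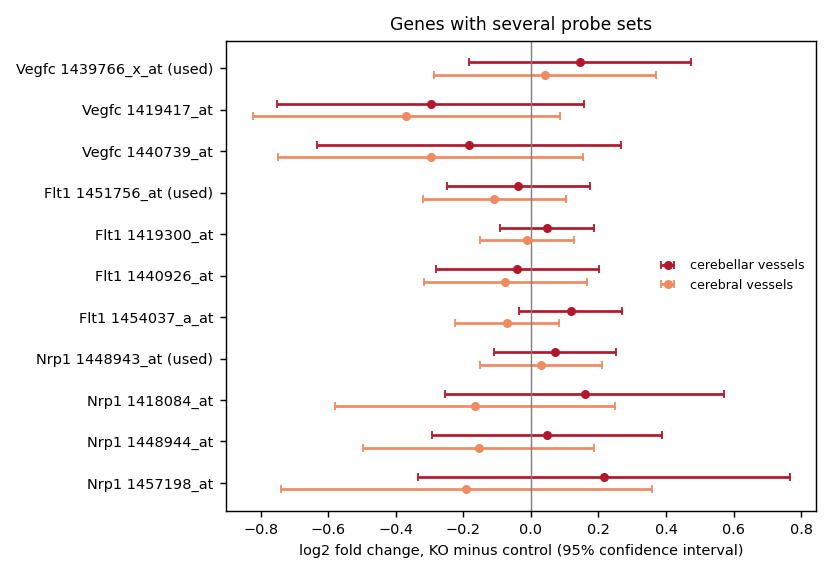
Log2 change, KO minus control, with its 95% confidence interval for every probe set of the 3 genes with several above the filter, cerebellar above cerebral for each. All intervals cross 0, and the 3 Vegfc probe sets lie on different sides of 0 in both regions.

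None of the VEGF receptors was called in KO vessels. Flt1 (chromosome 5) ranged from 13.44 to 13.85 log2 over KO arrays and from 13.59 to 13.88 log2 over control arrays. Its difference was -0.04 log2 in cerebellar vessels (95% confidence interval -0.25 to 0.17) and -0.11 log2 in cerebral vessels (-0.32 to 0.10). The other 3 probe sets of Flt1 gave -0.04 to 0.12 log2 in cerebellar and -0.08 to -0.01 log2 in cerebral vessels, and none was called.

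Kdr (chromosome 5) read 13.68, 13.16 and 13.42 log2 in KO cerebellar vessels, against 13.19, 13.24 and 13.27 log2 in control cerebellar vessels. In cerebral vessels it read 13.48, 13.18 and 13.33 log2 in KO mice, against 13.23, 13.25 and 13.35 log2 in control mice. KO mice were spread more widely than controls, and KO mouse 2 lay just below every control array. The difference was 0.19 log2 in cerebellar vessels (95% confidence interval -0.07 to 0.45) and 0.05 log2 in cerebral vessels (-0.21 to 0.32).

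Nrp1 (chromosome 8) ranged from 13.57 to 13.94 log2 over KO arrays and from 13.66 to 13.84 log2 over control arrays. Its difference was 0.07 log2 in cerebellar vessels (95% confidence interval -0.11 to 0.25) and 0.03 log2 in cerebral vessels (-0.15 to 0.21). The other 3 probe sets of Nrp1 lay at 0.05 to 0.22 log2 in cerebellar and at -0.19 to -0.15 log2 in cerebral vessels, and none was called. In Vegfc, Flt1, Kdr, Nrp1 and Tek, KO mouse 1 was the highest and KO mouse 2 the lowest of the KO mice in both regions, a pattern picked out after the values were seen. The mean of the endothelial markers followed the same order in cerebellar vessels, at 12.95 log2 in KO mouse 1, 12.84 log2 in KO mouse 2 and 12.94 log2 in KO mouse 3. In cerebral vessels it was lowest in KO mouse 1, at 12.87 log2, with 12.96 log2 in KO mouse 2 and 12.97 log2 in KO mouse 3.

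Angpt1 (Entrez gene 11600, chromosome 15, probe set 1439066_at), the ligand that activates Tek, was the other gene that fell. In cerebellar vessels it read 7.87, 7.47 and 7.55 log2 in KO mice, against 8.36, 8.36 and 8.24 log2 in control mice. In cerebral vessels it read 7.12, 7.18 and 7.56 log2 in KO mice, against 7.95, 8.26 and 8.04 log2 in control mice. KO and control arrays did not overlap in either region, and all 6 KO arrays lay below all 6 control arrays. The cerebellar difference was -0.69 log2 (SE 0.14, n = 3 each, limma adjusted p = 0.0190), which is 1.61-fold lower in KO vessels. The cerebral difference was -0.79 log2 (SE 0.14, n = 3 each, limma adjusted p = 0.00743), which is 1.73-fold lower.

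On the mouse means Angpt1 read 7.49, 7.33 and 7.56 log2 in KO mice and 8.15, 8.31 and 8.14 log2 in control mice, a difference of -0.74 log2 (SE 0.08, limma adjusted p = 0.00753). The cerebellar call was the less secure. Without control cerebellar array 1 or 2, or KO cerebellar array 2 or 3, its limma adjusted p was 0.0661, 0.0680, 0.0649 and 0.0808, with a difference of -0.67 to -0.61 log2. The second probe set of Angpt1, 1421441_at, read 2.19 to 2.23 log2 on all 12 arrays, under the median of all values, and gave no measure of the gene.

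Angpt2 (chromosome 8), which can oppose Angpt1 at Tek, read 10.04, 9.65 and 9.90 log2 in KO cerebellar vessels, against 9.77, 9.68 and 9.40 log2 in control cerebellar vessels. The cerebral values of Angpt2 were 9.56, 9.66 and 9.51 log2 in KO mice, against 9.61, 9.58 and 9.53 log2 in control mice. The groups overlapped in both regions. The cerebellar difference was 0.25 log2 (95% confidence interval 0.00 to 0.50, limma adjusted p = 0.299), and the cerebral difference was 0.00 log2 (-0.24 to 0.25). A second Angpt2 probe set read 2.93 to 3.09 log2 on all arrays, under the median of all values.

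Set against Angpt2 on the same array, Angpt1 was lower in KO vessels of both regions. The difference Angpt1 minus Angpt2 was taken relative to its mean in control cerebral vessels, since the levels of separate probe sets cannot be compared. It averaged -0.74 ± 0.10 log2 (range -0.85 to -0.68) in KO cerebellar vessels and 0.20 ± 0.12 log2 (range 0.09 to 0.33) in control cerebellar vessels (SD, n = 3 each). It averaged -0.80 ± 0.29 log2 (range -0.98 to -0.46) in KO cerebral vessels and spread over -0.17 to 0.17 log2 in control cerebral vessels. These are values only and were not tested.

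Tek (chromosome 4), the receptor of both angiopoietins, ranged from 14.42 to 14.61 log2 over KO arrays and from 14.42 to 14.60 log2 over control arrays. Its difference was 0.02 log2 in cerebellar vessels (95% confidence interval -0.13 to 0.17) and 0.03 log2 in cerebral vessels (-0.12 to 0.18). Of the 10 genes only Tie1 had narrower intervals.

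Tie1 (chromosome 4), the partner of Tek, read 10.66, 10.67 and 10.63 log2 in KO cerebellar vessels, against 10.68, 10.63 and 10.61 log2 in control cerebellar vessels. The cerebral values of Tie1 were 10.95, 10.80 and 10.85 log2 in KO mice, against 10.68, 10.74 and 10.60 log2 in control mice. The cerebral groups did not overlap, while the cerebellar groups did. The cerebral difference was 0.19 log2 (SE 0.06, limma adjusted p = 0.0811) and was not called, and the cerebellar difference was 0.01 log2 (95% confidence interval -0.12 to 0.14). In cerebral vessels 3 of 10 members (Pgf, Angpt1 and Tie1) had groups that did not overlap, against 24.4% of all genes. In cerebellar vessels 2 of 10 did, against 22.1% of all genes.

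**Figure D3:**
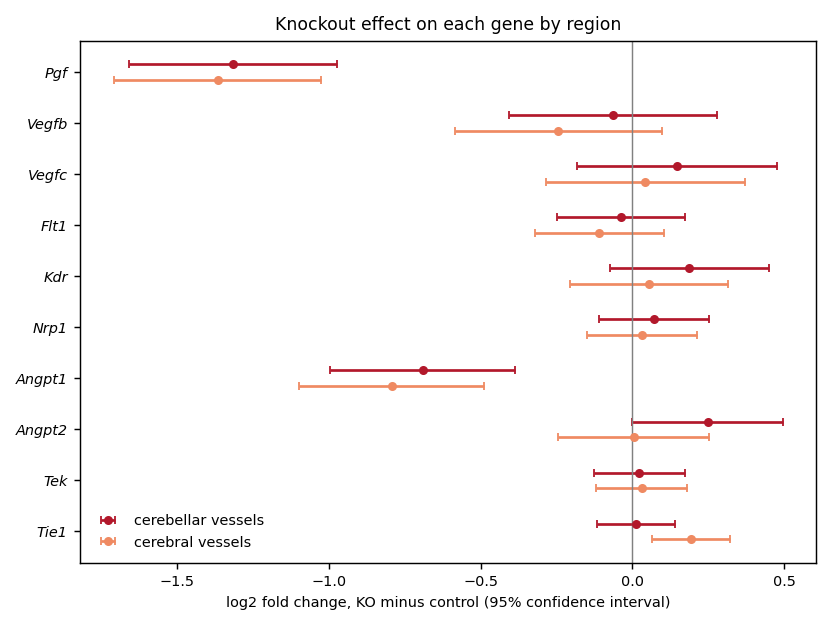
Log2 change, KO minus control, with its 95% confidence interval for the 10 genes, cerebellar above cerebral for each. The intervals of Pgf and Angpt1 lie wholly below 0 in both regions, and that of Tie1 lies above 0 in cerebral vessels and across 0 in cerebellar vessels.

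The fall of Pgf and Angpt1 went along with a fall of mural cell markers. Of 15 smooth muscle markers tested, 13 fell in cerebellar and 13 in cerebral vessels, with a median log2 change of -1.21 and -1.05. The log2 of their summed level was 15.70 to 15.87 in KO cerebellar, 15.60 to 15.78 in KO cerebral, 16.51 to 16.80 in control cerebellar and 16.35 to 16.59 in control cerebral vessels. Of 14 pericyte markers tested, with Notch3 left out, 7 fell in cerebellar and 9 in cerebral vessels, with a median log2 change of -0.59 and -0.78. The log2 of their summed level was 16.67 to 16.77 in KO cerebellar, 16.31 to 16.35 in KO cerebral, 16.92 to 17.07 in control cerebellar and 16.55 to 16.65 in control cerebral vessels. In these samples of mixed cell types, fewer cells of a type and less RNA per cell cannot be told apart.

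Endothelial markers moved less. Of 24 tested, Sox17 (0.30 log2) and Sox18 (0.47 log2), a pair of endothelial transcription factors, rose in cerebellar vessels, and 0 were called by limma in cerebral vessels, where 4 had an unadjusted p under 0.05. Their median log2 change was 0.12 in cerebellar and 0.03 in cerebral vessels. Of 11 microglia markers 5 rose in cerebral and 0 were called by limma in cerebellar vessels, where 1 had an unadjusted p under 0.05. The log2 of their summed level was 16.66 to 17.13 in KO cerebral and 15.98 to 16.48 in control cerebral vessels. Of 8 cerebellar neuron markers 3 rose in cerebellar and 1 fell in cerebral vessels, with a median log2 change of 0.62 and -0.03. Of 9 astrocyte markers 1 was called, lower, in each region, while their median log2 change was 0.47 in cerebellar and 0.22 in cerebral vessels. Of 12 fibroblast markers 3 rose and 1 fell in cerebellar vessels, and 1 rose and 1 fell in cerebral vessels.

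The 2 ligands were next expressed relative to the mean of each marker list on the same array. Relative to the endothelial markers, Pgf differed by -1.44 log2 in cerebellar and -1.38 log2 in cerebral vessels, and Angpt1 by -0.81 log2 in both. Relative to the pericyte markers, Pgf differed by -0.74 log2 in cerebellar and -0.64 log2 in cerebral vessels, and Angpt1 by -0.12 log2 in cerebellar and -0.07 log2 in cerebral vessels. This scaling put the median of all genes at 0.58 log2 in cerebellar and 0.72 log2 in cerebral vessels.

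Relative to the smooth muscle markers, Pgf differed by -0.11 log2 in cerebellar and -0.22 log2 in cerebral vessels. Angpt1 then stood at 0.52 log2 in cerebellar and 0.35 log2 in cerebral vessels, with the median of all genes at 1.22 log2 in cerebellar and 1.13 log2 in cerebral vessels. Each scaling subtracts the same value from all genes of an array, so it cannot change how far a ligand lies below the median of all genes. A sign against 0 includes that shared shift. The part of the marker changes in the lower Pgf and Angpt1 was not tested.

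**Figure D4:**
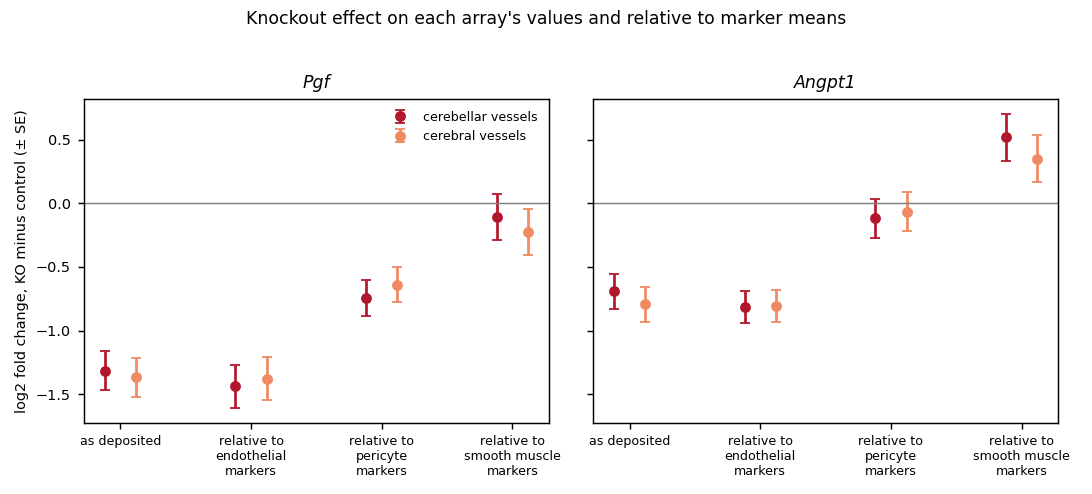
Log2 change, KO minus control, of Pgf (left) and Angpt1 (right) on the deposited values and relative to the mean of the endothelial, pericyte and smooth muscle markers of the same array; points are estimates and bars are ± SE, cerebellar left of cerebral. Relative to pericyte markers Pgf stays below 0 while Angpt1 lies near 0, and relative to smooth muscle markers Angpt1 lies above 0; these scalings raise the median of all genes to 0.58 and 0.72 log2 (pericyte) and to 1.22 and 1.13 log2 (smooth muscle) in cerebellar and cerebral vessels.

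The genes most like each of the 2 ligands were found by Pearson's r over the 12 arrays, which span both genotypes and regions, as a description. For Pgf these were Rgs4 (r = 0.992), a regulator of G protein signalling, Higd1b (r = 0.985), which is in the pericyte list, and Gucy1a1 (r = 0.985), a subunit of the guanylate cyclase that senses nitric oxide. For Angpt1 they were Acta2 (r = 0.964), the actin of smooth muscle, Myl9 (r = 0.962), a light chain of myosin, and Fam241a (r = 0.961). All 6 were called lower in KO vessels of both regions. They were picked for likeness on these same arrays, where both ligands separate the genotypes, so these calls add no separate evidence. The log2 differences in cerebral vessels were -0.66 for Rgs4, -0.97 for Higd1b, -1.23 for Gucy1a1, -0.39 for Acta2, -1.01 for Myl9 and -0.62 for Fam241a.

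The second question was whether the genes differ between regions. Pgf was higher in cerebellar than in cerebral vessels of 6 of 6 mice, and no other member was called. The difference, cerebellar minus cerebral, was 0.98, 0.86 and 1.23 log2 in KO mice and 0.97, 0.79 and 1.17 log2 in control mice. Over both genotypes it averaged 2.00-fold (95% confidence interval 0.76 to 1.24 on the log2 scale, SE 0.11, limma adjusted p = 0.000398). Here 1 of 10 members was called, higher, where 12.4% of all genes were called and 7.54% were called higher. With mouse as a block 2495 genes were called in place of 1449, and Pgf was again the 1 member called (limma adjusted p = 0.000281).

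Within KO mice Pgf differed between regions by 1.03 log2 (SE 0.15, limma adjusted p = 0.00465), with 1 of 10 members called, against 6.8% of all genes called and 3.84% called higher. Within control mice it differed by 0.97 log2 (SE 0.15, limma adjusted p = 0.0110), with 1 of 10 members called, against 2.29% of all genes called and 1.95% called higher. Without control cerebellar array 2 the control difference was 0.97 log2 and was not called (limma adjusted p = 0.0519). With mouse as a block 1723 genes in place of 797 were called in KO mice and 915 in place of 268 in control mice, with Pgf again called in both (limma adjusted p = 0.00149 and 0.00365).

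Pericyte markers were also higher in the cerebellum: 12 of 14 rose over both genotypes, with a median log2 difference of 0.73. Relative to the mean of these markers Pgf differed by 0.34 log2 over both genotypes, by 0.29 log2 in KO mice and by 0.39 log2 in control mice. In KO mice Pgf was then not called (limma adjusted p = 0.0635). This scaling put the median regional difference of all genes at -0.67 log2 over both genotypes, -0.73 log2 in KO mice and -0.60 log2 in control mice. Of 12 fibroblast markers 7 and of 7 choroid plexus markers 6 were higher in the cerebellum, and 10 of 11 microglia markers were lower. Of 8 cerebellar neuron markers 6 were higher (median 0.94 log2), of 9 astrocyte markers 4 were higher and 2 lower (median 0.49 log2), and of 15 smooth muscle markers 4 were higher (median 0.12 log2). Among the cerebellar neuron markers Pcp2 (2.71 to 4.47 log2) and Calb1 (2.85 to 5.79 log2) lay above the median of all values on only 4 and 7 arrays. Car8 lay above it on all 12. Such dim markers can pass the filter through cerebellar arrays alone. The log2 of the summed fibroblast markers was 15.12 to 15.32 in KO cerebellar and 14.70 to 14.76 in KO cerebral vessels, and 15.04 to 15.17 in control cerebellar and 14.59 to 14.80 in control cerebral vessels. For microglia it was 16.11 to 16.16 in KO cerebellar and 16.66 to 17.13 in KO cerebral vessels, and 15.76 to 16.08 in control cerebellar and 15.98 to 16.48 in control cerebral vessels. The part of these markers in the regional difference of Pgf was not tested further.

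Angpt1 differed between regions by 0.29 log2 over both genotypes (SE 0.10, limma adjusted p = 0.0802) and was higher in cerebellar vessels of 5 of 6 mice. Relative to endothelial markers the difference was 0.37 log2 (limma adjusted p = 0.0202), and relative to pericyte markers it was -0.37 log2, where the median of all genes lay at -0.67 log2. Tie1 ran the other way, at -0.12 log2 over both genotypes (SE 0.04, limma adjusted p = 0.0815). With mouse as a fixed block neither was called (limma adjusted p = 0.0783 for Angpt1 and 0.0773 for Tie1), and with mouse as a random block both were (limma adjusted p = 0.0336 for Angpt1 and 0.0259 for Tie1). In KO mice Tie1 differed by -0.29, -0.13 and -0.22 log2, and its mean of -0.21 log2 (limma adjusted p = 0.0576) was not called with mouse as a fixed block (limma adjusted p = 0.0529) and was called with mouse as a random block (limma adjusted p = 0.0141).

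**Figure D5:**
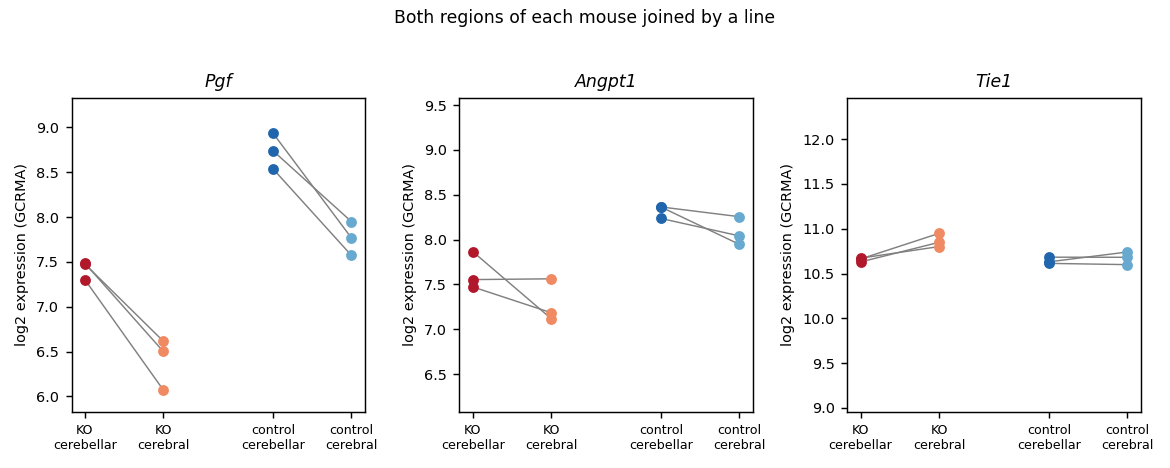
Log2 expression of Pgf, Angpt1 and Tie1 in cerebellar and cerebral vessels, with a line joining both regions of 1 mouse, KO mice left of control mice. Each of the 6 Pgf lines falls from cerebellar to cerebral vessels, and the 3 Tie1 lines of KO mice rise.

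The other 7 genes differed little between regions, with estimates over both genotypes from -0.12 log2 for Flt1 to 0.16 log2 for Angpt2, and none was called. The 95% confidence interval of Angpt2 ran from -0.01 to 0.34 log2 and that of Flt1 from -0.27 to 0.03 log2. On its brightest probe set Nrp1 differed by 0.11 log2 over both genotypes (limma adjusted p = 0.266). There it was higher in cerebellar vessels of 6 of 6 mice (0.02 to 0.18 log2). The other Nrp1 probe sets differed by 0.01 to 0.19 log2 over both genotypes, and none was called. In control mice 1418084_at and 1457198_at lay at -0.03 and -0.19 log2.

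The third question was whether the effect of the knockout differed between regions. By limma, 0 of 10 members were called, 0 had an unadjusted p under 0.05, and 0.0427% of all genes were called. The KO effect in cerebellar minus that in cerebral vessels was 0.05 log2 for Pgf (95% confidence interval -0.43 to 0.53) and 0.10 log2 for Angpt1 (-0.33 to 0.53), both with a limma adjusted p of 0.999. For Tie1 it was -0.18 log2 (95% confidence interval -0.36 to 0.00, limma adjusted p = 0.999), so a regional difference of its knockout effect was not shown.

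Other genes of these pathways were counted by list. Of 14 other ligands, co-receptors and binding partners, such as Nrp2, Flt4 and the integrins of the vessel wall, 0 were called by limma in KO vessels of either region or on the mouse means, with 2 at an unadjusted p under 0.05 in cerebellar vessels, 5 in cerebral vessels and 2 on the mouse means. The semaphorin receptor Plxna1 was higher in cerebellar vessels by 0.21 log2 over both genotypes (limma adjusted p = 0.0437). It was 1 of 14 (7.14%) called between regions, against 12.4% of all genes. Of 22 receptor partners and phosphatases 1 (4.55%) was called in KO cerebellar vessels, against 4.22% of all genes. This was Gab1, a docking protein of receptor tyrosine kinases, which fell by 0.35 on the log2 scale (limma adjusted p = 0.0316). Gab1 was not called on the mouse means (limma adjusted p = 0.114).

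Of 24 downstream kinases and transcription factors, Ets1, a transcription factor of the vessel wall, had the largest change. In cerebellar vessels Ets1 read 13.20, 13.01 and 12.83 log2 in KO mice, with a mean of 13.01 log2, against a mean of 14.03 log2 in control mice. In cerebral vessels Ets1 read 13.51, 13.11 and 12.92 log2 in KO mice, against 14.07, 14.10 and 14.15 log2 in control mice. The groups did not overlap, and Ets1 differed by -1.02 log2 in cerebellar (SE 0.14, limma adjusted p = 0.00166) and -0.92 log2 in cerebral vessels (SE 0.14, limma adjusted p = 0.00308). In KO cerebral vessels Hspb1, a small heat shock protein, also fell (-0.54 log2), and the endothelial transcription factor Gata2 (0.41 log2) and the small GTPase Rac1 (0.21 log2) rose. In cerebellar vessels these genes were not called but ran the same way. There Hspb1 read 12.78 to 13.06 log2 in KO and 13.20 to 13.36 log2 in control mice. Gata2 read 11.69 to 11.74 against 11.29 to 11.52 log2, and Rac1 13.61 to 13.72 against 13.53 to 13.57 log2. Groups without overlap were seen in 22.1% of all genes there. The list had 4 of 24 called (16.7%) in cerebral vessels, against 6.38% of all genes, and 1 of 24 (4.17%) in cerebellar vessels, against 4.22% of all genes. On the mouse means 1 of 24 was called, Ets1 (-0.97 log2, limma adjusted p = 0.0114), and Hspb1, Gata2 and Rac1 were not (limma adjusted p = 0.0796, 0.0812 and 0.142).

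Of 20 genes known to respond to VEGF or angiopoietin in endothelium, 1 (5%) rose in each region, against 4.22% of all genes called in cerebellar and 6.38% in cerebral vessels. This was Pdgfb, the ligand by which endothelium recruits pericytes, with 0.38 log2 in cerebellar (limma adjusted p = 0.0238) and 0.31 log2 in cerebral vessels (limma adjusted p = 0.0439). On the mouse means 0 of the 20 were called by limma and 6 had an unadjusted p under 0.05, with Pdgfb at 0.35 log2 (limma adjusted p = 0.0563, unadjusted p = 0.00243). Between regions Stc1, a secreted glycoprotein, was higher in cerebellar vessels by 0.45 log2, and Pdgfb differed by -0.21 log2. The list had 10% called between regions over both genotypes, against 12.4% of all genes. Of 13 genes of the response to low oxygen 0 were called by limma in KO vessels of either region, with 4 at an unadjusted p under 0.05 in each. The glycolytic enzyme Pgk1 was higher in cerebellar vessels by 0.35 log2 (limma adjusted p = 0.00351). It was 1 of 13 (7.69%) called between regions over both genotypes, against 12.4% of all genes.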

How the data were processed

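RNA of vessel fragments was hybridised to 1 array per region and mouse. The authors deposited log2 expression values summarised per probe set by GCRMA 2.32.0, per the submitters' processing notes. They were used as deposited. Probe sets were kept if 3 or more of 12 arrays lay above 3.27, the median over the whole table. Of the sets naming exactly 1 gene (34958; 932 named several and 9211 none), the one with the highest mean stood for its gene.

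Group means over 12 arrays were fitted with limma 3.58.1 on R 4.3.3 (lmFit, eBayes, two-sided, 8 residual degrees of freedom), as were mouse means (4 residual degrees of freedom), with Benjamini-Hochberg adjustment over 11716 genes at 0.05. The design text gives 3 mice per genotype, so replicates are mice, and the replicate number of a label was taken as the mouse. Regions of a mouse deviated together from their group means (r = 0.57 to 0.70 in KO and 0.37 to 0.55 in control mice, across genes), so mouse pairs the regions. The number of arrays limits the precision.

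The members and lists were chosen with earlier results of these data known. Genes named beyond the members were the up to 3 called genes with the largest change per pathway list and comparison, the defining markers and the 3 genes most like each called member. Rac1, the fourth called gene of its list in 1 comparison, Sox17 and Sox18 were named after their values were seen. The fit was tested on simulated data of 11716 genes for the cerebral KO comparison. It recovered 88% of genes changed by 0.75 log2 and 93% of those changed by 1.5 log2. The changed genes were drawn only from brighter genes, and each simulated array varied on its own. The rates therefore do not cover dim genes or arrays that share a mouse. Alternatives covered the filter, the probe sets, scaling, the variance model, the arrays fitted, pairing, Xist as a covariate and leaving out arrays or mice. Scaling to smooth muscle markers was added after the data were seen.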

Additional observations from a re-analysis of the deposited data

How the results depend on the processing

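Pgf kept its direction between genotypes and between regions in all alternatives tried and was called lower in KO vessels in 26 of 27 alternatives in each region and 18 of 19 on mouse means, the exception being the scaling to smooth muscle markers, which moves all genes. Angpt1 kept its call in 23 of 26 alternatives in cerebral vessels and 20 of 26 in cerebellar vessels. Relative to smooth muscle markers it turned to 0.35 log2 in cerebral vessels, 0.52 log2 in cerebellar vessels and 0.44 log2 on mouse means, and relative to pericyte markers its mean regional difference was -0.37 log2. These signs follow from the scaling, which put the median of all genes at 1.13, 1.22 and 1.18 log2 in the same 3 KO comparisons and at -0.67 log2 between regions. The number of members called in KO vessels was 1 in each region and on mouse means with the filter at the 75th percentile, which left 8 members tested and Angpt1 not among them, and 1 in cerebral vessels in a fit of only the 6 arrays compared (Angpt1 limma adjusted p = 0.0545). Relative to pericyte markers 9 members were called in each region and on mouse means, and relative to smooth muscle markers 8 in cerebral vessels, 9 in cerebellar vessels and 9 on mouse means, where 86.7% to 98.6% of all genes were called. Leaving out single arrays gave 1 to 2 members in cerebellar and 2 in cerebral vessels, and leaving out single mice 2. Tie1 was called higher in KO cerebral vessels in 3 of 27 alternatives. These were the scalings to pericyte and to smooth muscle markers, and a setting that neither scaled to markers nor left out an array.

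Between regions, the members called were 9 in control mice, 9 in KO mice and 10 over both genotypes relative to pericyte markers, 0 in control mice relative to smooth muscle markers, and 2 over both relative to endothelial markers. In that last setting 14.8% of all genes were called. In KO mice the members called were 2, Pgf and Tie1, with no filter, with the mean of probe sets, with array weights, with mouse as a random replicate block and with Xist as a covariate. Over both genotypes they were 3 with array weights and 3 with mouse as a random replicate block. The number of all genes called moved with the setting too, so these counts are not a result about the members. Leaving out single arrays gave 0 to 1 in control mice, 1 to 2 in KO mice and 1 to 2 over both. The difference between regional knockout effects gave 0 members in all 26 alternatives. Relative to pericyte markers, the member not called between regions in KO mice was Pgf (0.29 log2, limma adjusted p = 0.0635).

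Same-numbered KO and control arrays deviated together weakly or not at all (r = -0.17 to 0.26), and the number was not taken to pair the genotypes. Such values cannot exclude a pairing. With the number as a replicate block Pgf and Angpt1 were again the 2 members called in each region and on mouse means, with 719 genes called in cerebellar vessels, 1127 in cerebral vessels and 407 on mouse means, in place of 495, 748 and 472. Without the marker scalings, counts of all genes called ranged from 302 to 742 in cerebellar and 310 to 1415 in cerebral vessels, and from 237 to 710 on mouse means. Between regions they ranged from 79 to 1078 in control mice, 322 to 1947 in KO mice and 953 to 2806 over both genotypes, and the difference of effects gave 0 to 20. Relative to endothelial markers 910 genes were called in KO cerebellar vessels and 523 between regions in control mice. Between regions 88.2% to 93.8% of genes were called relative to pericyte markers, and 158 genes in control mice relative to smooth muscle markers. The causes were not tested.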
